A study of Mus musculus with 3 samples.

Results

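The general pluripotency genes described here are 10 genes of the stem cell state, namely Pou5f1, Sox2, Sall4, Utf1, Dppa2, Dppa4, Dppa5a, Lin28a, Tdgf1 and L1td1. They were chosen by symbol, for their known use across pluripotent states, and each is 1 row of the 52636 gene rows in the tables. Single-cell transcriptomes of mouse embryonic stem (ES) cells were made by Smart-SCRB, a plate assay that counts unique molecular identifiers (UMIs), each of which marks 1 captured RNA molecule. The cells derive from JM8.N4, an ES line of the C57BL/6N strain grown without feeders in serum with LIF and 2i (PD0325901 and CHIR99021), and carry the cohesin subunit RAD21 fused to a degron, so that auxin removes the protein. Control cells and cells treated with auxin for 6 h at 500 µM both carry the tagged protein, and the whole procedure was run in 3 replicates. The degron acts on the RAD21 protein, so RNA counts do not check it.

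Each of the 16 plates held 1 condition, and 1335 of 1536 wells passed the cut of 2600 detected genes. On 2 of the 4 plates of replicate 3, with 168 cells, the deposited annotation and the source values of the study gave opposite conditions, and these plates are left out below except where named, which leaves 1167 cells and 1 plate per condition in replicate 3. Each replicate and condition was summed over its cells, giving 6 sums of 84 to 371 cells and 6064936 to 50448320 UMIs, with a median of 72317 to 187088 UMIs per cell. Replicate 1 was sequenced on another instrument than replicates 2 and 3 and stands apart from both in the level of many genes. The 288 well barcodes were reused among plates, so a barcode alone does not name a cell. The 8 ES markers summed to between 2944 and 9935 CPM (UMIs of a gene per 1000000 gene UMIs), of which the members Pou5f1, Sox2, Utf1, Dppa5a and Tdgf1 are 5 and Dppa5a carried the largest part. The others, Nanog, Zfp42 and Esrrb, were at 38.9 to 563, 73.1 to 303 and 6.78 to 125 CPM, while markers of primitive endoderm, trophoblast, fibroblasts, neuroectoderm and mesoderm each summed to at most 28.6 CPM, with no listed marker at 0 in all 6 sums.

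Pou5f1 (OCT4) and Sox2 bind DNA together at composite sites and hold the pluripotency network in place, and Sall4 is a zinc finger factor that works beside them. These factors are used in both the naive state, which 2i favours, and the formative and primed states that follow it as cells leave for differentiation. Utf1 is a chromatin-bound factor, Dppa2 and Dppa4 are a pair of SAP domain proteins that act on bivalent promoters and on the programme of 2-cell-like cells, Dppa5a is a KH domain protein, Lin28a blocks let-7 maturation, L1td1 is an RNA-binding protein derived from a LINE-1 element, and Tdgf1 (Cripto) is the co-receptor of Nodal.

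In mm10, Pou5f1 lies at chr17:35506018-35510772 and Sox2, a gene of a single exon, at chr3:34650405-34652461. Sall4 is at chr2:168748332-168767943, Utf1 at chr7:139943789-139945112, L1td1 at chr4:98726734-98738480 and Lin28a at chr4:134003330-134018841. Dppa4 at chr16:48283733-48294237 and Dppa2 at chr16:48303908-48319723 are neighbours on one strand, and chromosome 9 holds both Dppa5a at chr9:78367052-78368177 and Tdgf1 at chr9:110939603-110946158. Sox2 is nested within Sox2ot, a longer gene on its own strand at chr3:34104270-34682619, and the end of Pou5f1 overlaps Gm19553 at chr17:35509077-35510551 on the opposite strand. The remaining members had no other annotated gene over their last 500 bases, where a 3′ tag falls. Several have processed copies elsewhere in the genome, and a read can be assigned to the gene only as far as the letters differ. The following 50-base stretches of coding sequence, from GENCODE transcripts placed on GRCm38 (mm10), show this for Pou5f1, Dppa5a and Dppa2, with mismatched letters in capitals.
Pou5f1, chr17:35510425-35510474, + strand: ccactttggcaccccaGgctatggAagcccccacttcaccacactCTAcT
Gm5712, its copy at chr3:129434591-129434640, + strand: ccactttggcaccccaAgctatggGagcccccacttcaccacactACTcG
Dppa5a, chr9:78367239-78367288, − strand: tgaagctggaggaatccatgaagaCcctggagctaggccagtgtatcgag
Gm15310, its copy at chr16:94358944-94358993, − strand: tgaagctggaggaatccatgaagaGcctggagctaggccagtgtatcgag
Dppa2, chr16:48318659-48318708, + strand: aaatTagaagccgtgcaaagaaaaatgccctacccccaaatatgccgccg
Gm9788, its copy at chr19:41460666-41460715, + strand: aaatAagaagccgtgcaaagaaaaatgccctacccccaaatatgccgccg
The Pou5f1 stretch differs from its copy at 6 letters, and the Dppa5a and Dppa2 stretches at 1 letter each. The same Dppa5a stretch is identical, with 0 mismatches, in another copy, Gm6083, at chr5:29538457-29538506. Reads from such a stretch of Dppa5a fit more than one place.

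Pou5f1 was high in replicate 1 and low in both others. Control cells had 273 CPM in replicate 1, 8.40 CPM in replicate 2 and 12.5 CPM in replicate 3, and auxin cells had 228, 5.81 and 10.9 CPM. Over plates it was 225 to 280 CPM on the 4 plates of replicate 1 and 4.57 to 12.5 CPM on the 12 others, so the plates did not overlap. The mean ratio to replicate 1 was 0.0281 ± 0.0037 (SD over the conditions, n = 2) in replicate 2 and 0.0469 ± 0.0015 in replicate 3. Counted as UMIs per cell these ratios were 0.0384 and 0.0320, and relative to the UMIs of the ERCC spike-ins, RNA added in equal amount to each well, 0.0402 and 0.0959. The order of replicates 2 and 3 thus changed with the scale, while both stayed far under replicate 1 on all 3 scales. That Pou5f1 was low was known before, so no test is given for it.

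Sox2 was the one other member with this pattern. It had 155 CPM in control and 97.3 CPM in auxin cells of replicate 1, from 4661 UMIs in all, and was at 0 UMIs in all 4 sums of replicates 2 and 3. Taking 3 UMIs over each replicate as the limit that a count of 0 allows, the counted level of replicate 1 was at least 4149-fold higher than that of replicate 2 and at least 532-fold higher than that of replicate 3. Sox2 failed the filter on low counts and was not tested.

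**Figure D1:**
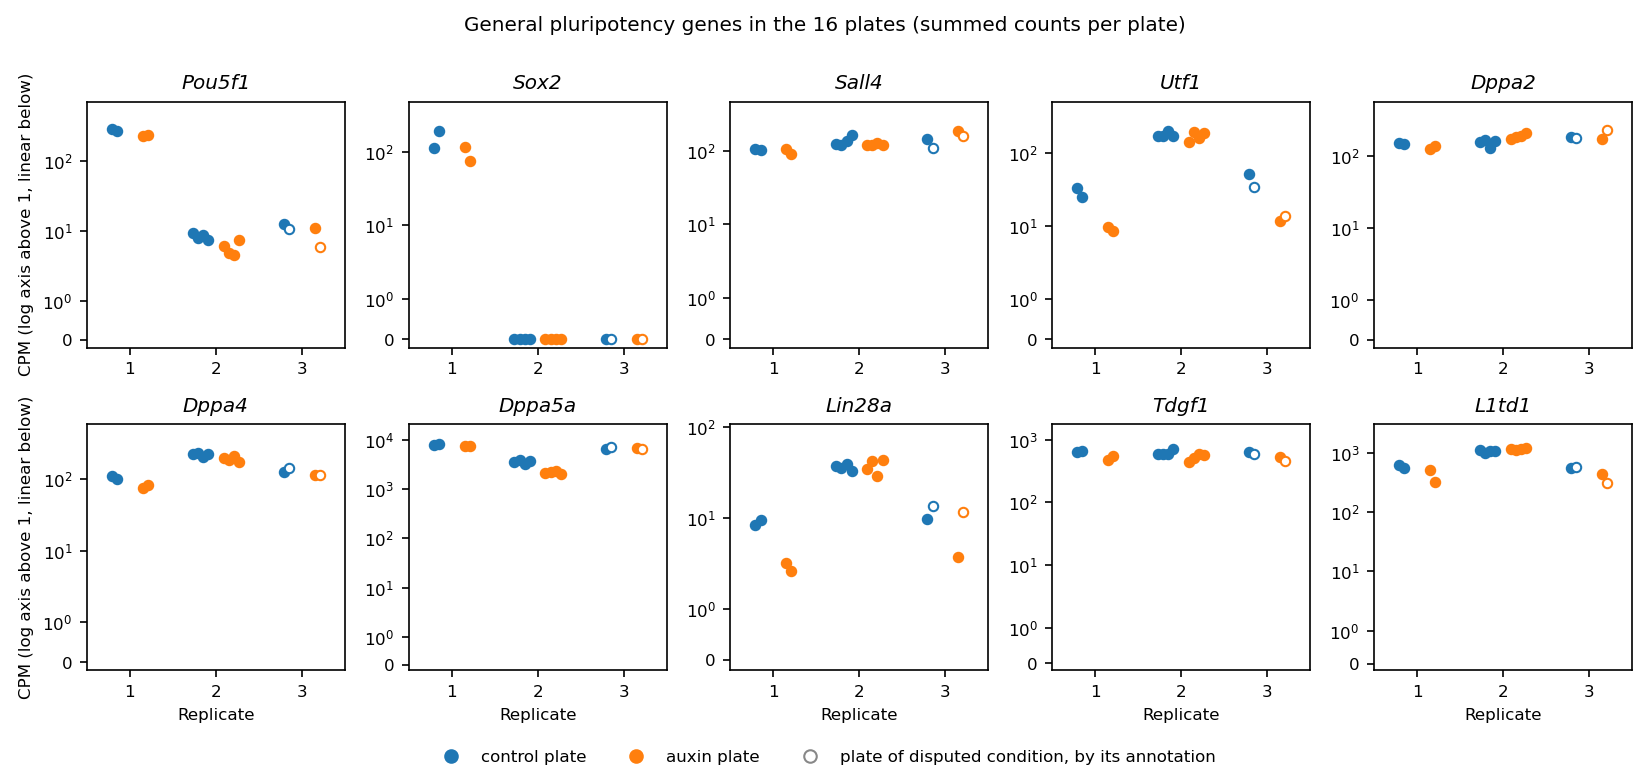
Level of each of the 10 genes (CPM, on an axis that is logarithmic above 1 and linear below) on the 16 plates by replicate, with control plates in blue, auxin plates in orange and the 2 plates of disputed condition as open circles. Pou5f1 and Sox2 are lower in replicates 2 and 3 than in replicate 1, Sox2 at 0 on all 12 plates, whereas Tdgf1 stays between 432 and 703 CPM on all 16 plates.

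The other 8 members did not share the low level of replicates 2 and 3. Their mean level in replicate 3 was 0.857-fold (Dppa5a) to 1.66-fold (Utf1) that of replicate 1. In replicate 2 Dppa5a was at 0.369-fold of replicate 1, Tdgf1 at 0.998-fold, and the remaining 6 were higher, from 1.23-fold for Dppa2 to 9.22-fold for Utf1. Over the 16 plates the log2(CPM + 1) of Sox2 followed that of Pou5f1 with a Pearson r of 0.985, and that of Dppa5a with an r of 0.69, while Tdgf1 had an r of 0.13 and the other 6 members lay between −0.78 (Dppa4) and −0.52 (L1td1). The plates fall into replicates, so these values describe the same split and carry no p. The 5 genes most like Pou5f1 by this measure were Hist1h2ap, Gapdh, Ftl1, Rpl24 and Apela, with an r of 0.989 to 0.991. Of 8773 genes with a mean of at least 10 CPM, 268 had an r over 0.9. Gapdh, an enzyme of glycolysis that all cells use, had a median over plates of 1617 CPM in replicate 1, 14.8 CPM in replicate 2 and 17.9 CPM in replicate 3.

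Rows that could hold the reads of Pou5f1 or Sox2 were therefore read in each replicate. Among 7690 genes of at least 10 CPM in replicate 1, 248 were under an eighth of that level in both other replicates, a share of 3.22% (0.1 CPM added to each). Of the 217 genes whose last 500 bases lie within the body of another gene on the same strand, outside its exons, as Sox2 does, 84.3% were this low, with a median log2 ratio of −7.69. Where the overlap was with a same-strand exon the share was 22.4% of 134 genes, with an opposite-strand exon 0.571% of 876, and with no overlap 0.438% of 5936. Among genes with no same-strand overlap the share was 0.283% of 6710 with no copy of at least 95% identity to their last 500 bases, where Pou5f1 belongs, 2.54% of 629 with 1 copy or more and 4.38% of 160 with 5 or more. It was 1.65% of 303 genes for which RefSeq names a copy, as it does for Pou5f1, and 0.426% of 7036 others. The 187 host genes of nested genes had median log2 ratios of 1.37 in replicate 2 and 0.93 in replicate 3 over replicate 1, and 83 of them were higher by 2-fold or more in both. Sox2ot, the host of Sox2, was at 1.05, 15.6 and 15.8 CPM in replicates 1, 2 and 3. Sox2 had a mean of 126 CPM over both conditions in replicate 1, so the difference of Sox2ot was smaller than that of Sox2.

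Pou5f1 has no same-strand host. It is 1 of the 5 genes of the opposite-strand exon class that were lower by more than 8-fold in both replicates. Gm19553, its antisense partner, was at 0, 0.0595 and 0.330 CPM in replicates 1, 2 and 3, and the neighbour Tcf19 at 8.36, 7.29 and 20.3 CPM. Gm5712, the copy printed above, matches Pou5f1 at 87.2% over 1074 bases and was at 0.0555, 0 and 0 CPM. None of these rows was higher in replicates 2 or 3 by as much as Pou5f1 was lower. The ambiguous reads that mapped to 1 place were 0.61% to 0.95% of trimmed reads on the plates of replicate 1, 2.18% to 2.29% in replicate 2 and 2.35% to 2.51% in replicate 3. Those that mapped to several places were 15.9% to 21.4%, 22.5% to 24.6% and 22.4% to 24.2%, and reads in no feature 13.7% to 16.9%, 8.54% to 10.2% and 9.58% to 10.6%. Ambiguous reads carry no gene name in the tables, so whether they came from Pou5f1 or Sox2 was not tested, and the instrument, the run and the handling of reads cannot be told apart from the replicate.

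**Figure D2:**
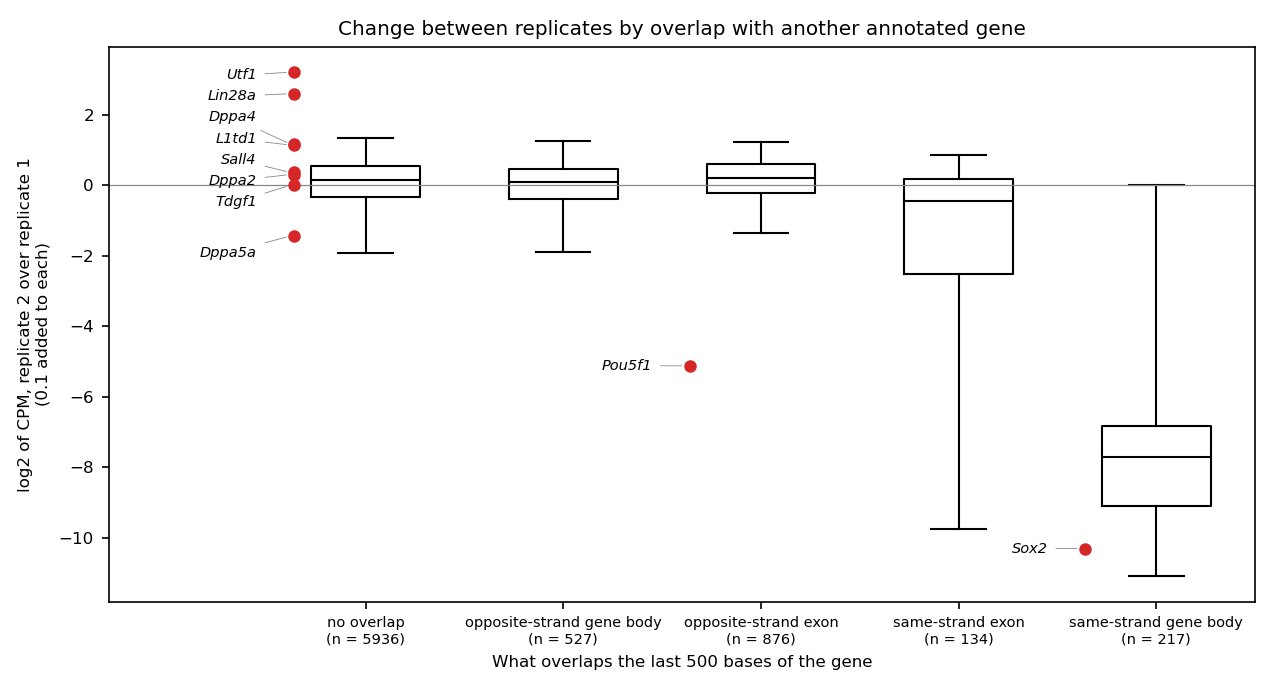
Log2 ratio of CPM in replicate 2 over replicate 1 (0.1 added to each) for genes of at least 10 CPM in replicate 1, by what overlaps their last 500 bases. Boxes show quartiles and whiskers the 5th to 95th percentile, and labelled points are the members. Lin28a, at 6.00 CPM in replicate 1, is labelled although it is under the cut and not among the genes of the boxes. Genes within a same-strand gene body, Sox2 among them, have a median of −7.69, and the no-overlap class, which holds most members, has a median of 0.14.

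Dppa5a was the member with the most close copies. It had 7998 and 7406 CPM (control, auxin) in replicate 1, 3560.0 and 2118 CPM in replicate 2, and 6308 and 6887 CPM in replicate 3. Replicate 2 was lower than both others in each condition. Its 11 copies of at least 85% identity summed to 749, 171 and 369 CPM in replicates 1, 2 and 3, lowest in replicate 2 as Dppa5a was. Gm6083, the copy identical over the printed stretch, was at 324, 96.9 and 229 CPM. Gm15310, which lies within Pigp on the same strand, was at 132 CPM in replicate 1 and at 0 in both others, while Pigp was at 23.5, 23.1 and 22.0 CPM. The copies of Dppa2 that have a row in the tables, 6 of 8, summed to at most 1.80 CPM.

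The replicates were then compared by a fit with condition as covariate, to place the other 8 members beside all genes. In replicate 2 against replicate 1, 8863 of 17514 genes tested, or 50.6%, passed an adjusted p of 0.05, and 6 of these 8 members did so. Utf1, Lin28a, L1td1 and Dppa4 rose and Dppa5a and Tdgf1 fell, so the members' share is read against that background. Utf1 had 29.4 and 9.20 CPM (control, auxin) in replicate 1, 182 and 174 CPM in replicate 2, and 52.1 and 12.0 CPM in replicate 3, and the log2 difference of replicate 2 from 1 was 3.10 ± 0.41 (SE, adjusted p = 0.000407). Lin28a had 9.04 and 2.96 CPM in replicate 1, 36.1 and 37.1 CPM in replicate 2, and 9.73 and 3.74 CPM in replicate 3, with a log2 difference of 2.42 ± 0.39 (adjusted p = 0.00127). For both genes replicate 2 lay above all 4 other sums. The size depends on the sums used, since the Utf1 difference was 2.18 without auxin replicate 2 and 3.93 without control replicate 2, and that of Lin28a 1.69 and 3.17. L1td1 (log2 difference 0.76 ± 0.14, adjusted p = 0.00221) and Dppa4 (0.78 ± 0.13, adjusted p = 0.00135) rose by less, and Dppa5a fell by 1.86 ± 0.18 on the log2 scale (adjusted p = 8.44e-05).

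Tdgf1 shows what the scaling does. Its mean was 575, 574 and 581 CPM in replicates 1, 2 and 3, yet its log2 difference of replicate 2 from 1 was −0.39 ± 0.09 (adjusted p = 0.00765). The TMM scaling of the fit moves every log2 difference by −0.37 for replicate 2 over 1 and by −0.39 for replicate 3 over 1 relative to CPM. With limma on the mean CPM per cell, which changes the scale, the averaging and the tool together, the Tdgf1 difference was −0.06 and no longer called. The call was also lost without the control sum of replicate 1, where the difference was −0.35. Sall4 (log2 difference −0.03, adjusted p = 0.872) and Dppa2 (−0.10, adjusted p = 0.588) did not pass the test, and their sign turned to 0.38 and 0.16 with limma.

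In replicate 3 against replicate 1, 7218 genes were called, 41.2% of those tested, and 3 of the 8 members, Dppa5a (−0.62, adjusted p = 0.0230), Tdgf1 (−0.40, adjusted p = 0.00941) and L1td1 (−0.42, adjusted p = 0.0373). With limma on the mean CPM per cell Dppa5a was at −0.24 and not called, and Tdgf1 (0.027) and L1td1 (0.030) were near 0 and not called, while Sall4 (0.69) and Dppa4 (0.37, with its sign turned) were newly called. From the CPM of the sums the log2 ratios were −0.22 for Dppa5a, 0.014 for Tdgf1 and −0.015 for L1td1. Their calls were also lost without the control sum of replicate 3, where the log2 differences were −0.31 for Dppa5a, −0.34 for Tdgf1 and −0.46 for L1td1, while Sall4 was called there at 0.58. Without the control sum of replicate 1 the calls of Tdgf1 (−0.35) and L1td1 (−0.22) were lost as well, and without the auxin sum of replicate 3 that of L1td1 (−0.37). In replicate 3 against replicate 2, 3061 genes were called, 17.5% of those tested, and 5 of the 8 members. Dppa5a was higher in replicate 3 by a log2 difference of 1.23 (adjusted p = 0.00228), and Utf1 (−2.85, adjusted p = 0.00217), Lin28a (−2.64, adjusted p = 0.00311), L1td1 (−1.19, adjusted p = 0.000696) and Dppa4 (−0.81, adjusted p = 0.00326) were lower. The calls of Utf1 and Lin28a were lost without the auxin sum of replicate 3 (−2.28 and −2.35), and that of Dppa4 without its control sum (−0.69).

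Other genes of the network were read to place these differences, beside 30.3% of all genes tested that rose and 20.3% that fell in replicate 2 against 1. Of 14 naive factors, 13 fell and 0 rose in replicate 2 against 1, with a median log2 difference of −2.60 against 0.16 over all genes. Tfcp2l1 (−6.60), Klf4 (−6.12), Tbx3 (−6.05) and Prdm14 (−4.98) changed most, and Tfcp2l1 was at 244, 3.31 and 315 CPM in replicates 1, 2 and 3. Of 13 formative and primed genes, 9 were tested, and 7 rose and 0 fell, with a median of 3.11, led by Lef1 (6.30), Pou3f1 (5.27), Dnmt3a (4.82) and Dnmt3b (4.09). The 30 partners and targets of the core circuit divided into 10 higher and 17 lower, with a median of −0.66, and Nanog, the naive factor beside Pou5f1 and Sox2, was at −3.85. Among 8 tested let-7 and LIN28 partners 4 rose, Lin28b (3.42) most, and 1, Hmga2 (−1.41), fell, beside 30.3% and 20.3% of all genes. With 8 genes the difference from these shares was not tested. Of 15 tested genes of the Nodal pathway, in which Tdgf1 acts, 5 rose and 7 fell, the largest differences being those of Lefty2 (−3.18), Smad7 (−2.85), Pcsk6 (−2.85) and Nodal (−1.72). None of the 10 listed targets of Dppa2 and Dppa4 passed the filter on low counts.

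In replicate 3 against replicate 1, 1 naive factor rose and 5 fell, with a median of −0.41, and 2 formative genes rose and 2 fell. Among all genes 25.1% were higher and 16.1% lower in this comparison, with a median of 0.13. Against replicate 2, 12 of 14 naive factors were higher and 7 of 9 formative genes lower in replicate 3, beside 9.59% and 7.89% of all genes. Utf1, Lin28a, L1td1 and Dppa4 were thus higher and Dppa5a lower than in both other replicates in replicate 2, the one with low naive and high formative genes, whereas Pou5f1 and Sox2 were low in replicate 3 as well. All 3 replicates carry the same label for line and medium.

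The share of cells with at least 1 UMI was compared after thinning each cell to 20000 UMIs, which left 79 to 363 cells per replicate and condition. Pou5f1 was found in 96.4% of control cells of replicate 1 (exact 95% interval 92.4 to 98.7, counting error only), in 10.7% of those of replicate 2 (7.75 to 14.4) and in 16.7% of those of replicate 3 (9.42 to 26.4). As deposited these shares were 97.0%, 30.7% and 24.7%. In control cells of replicate 2 the thinned mean was 0.196 UMIs of Pou5f1 per cell, for which a Poisson distribution gives 17.8% of cells with a UMI, and as deposited the highest cell held 31. Sox2 was found in 78.6% of control and 65.1% of auxin cells of replicate 1. It was in 0 of 371 control and 0 of 290 auxin cells of replicate 2 as deposited, which by the limit of 3 counts allows a share of up to 0.809% and 1.03%, and the limits in replicate 3 were 3.53% and 3.57%. These limit cells with a counted UMI, not cells that express Sox2.

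Dppa5a, Tdgf1 and L1td1 were found in most cells of all 6 groups after thinning. Dppa5a was in every cell of replicates 1 and 3 and in 98.1% of control and 91.3% of auxin cells of replicate 2. Tdgf1 was in 81.2% to 98.2% and L1td1 in 89.9% to 98.1% of cells over the 6 groups. Sall4 (62.5% to 87.3%), Dppa2 (66.3% to 83.3%) and Dppa4 (62.1% to 90.9%) were in most cells. Utf1 ranged from 8.88% in auxin cells of replicate 1 to 89.3% in control cells of replicate 2, and Lin28a from 4.14% to 43.7% over the same replicates, so that their shares moved as their CPM did.

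**Figure D3:**
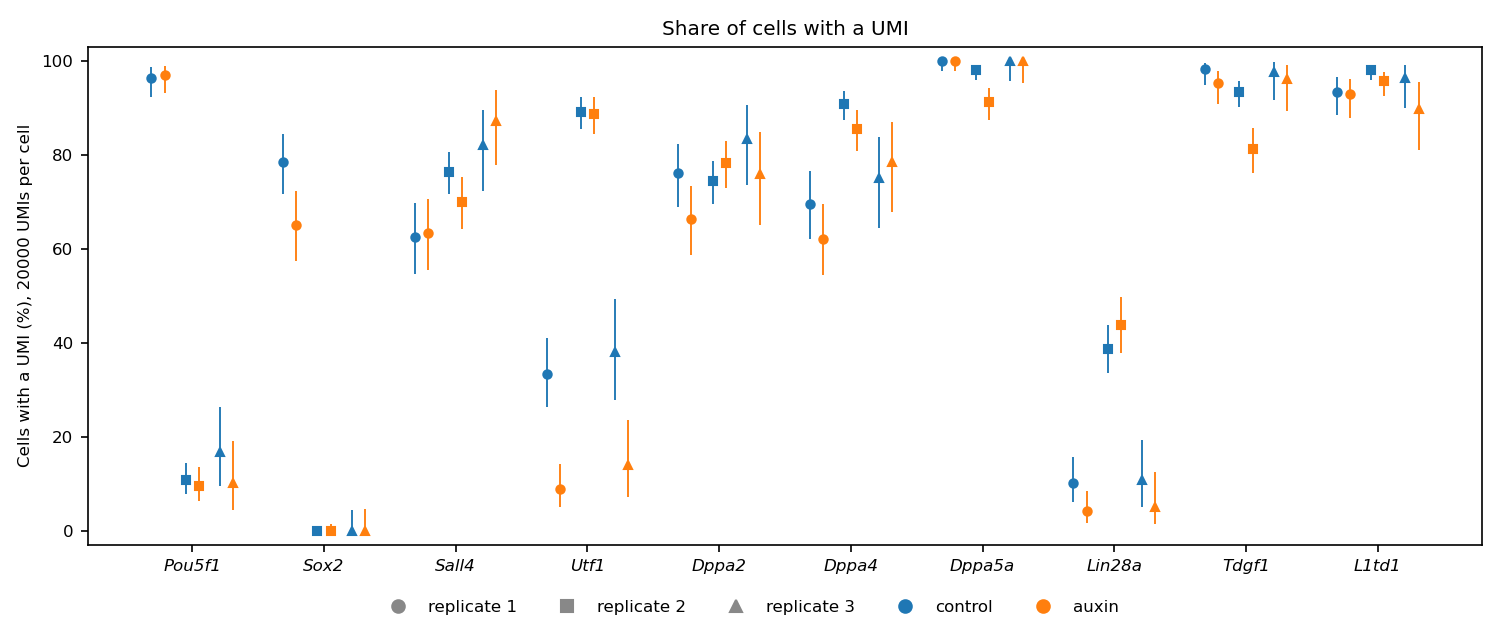
Share of cells with at least 1 UMI (%) after thinning each cell to 20000 UMIs, for each gene, replicate (marker shape) and condition (blue control, orange auxin). Bars are exact 95% binomial intervals and cover counting error only. Utf1 and Lin28a lie highest in replicate 2, and Pou5f1 and Sox2 in replicate 1.

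Auxin and control cells were compared to ask whether loss of RAD21 moved these genes. With the 3 replicates as independent sums, which leaves the large spread between replicates in the residual, 0 of 17514 genes passed the test (0%), and 33 had an unadjusted p under 0.05. DESeq2 called 0 as well, with 66 at that unadjusted p. On simulated data this design did not recover changed genes, so its count says nothing about an effect of auxin. The replicate numbers pair the sums, and with a replicate block 3 genes passed, or 0.0171% of those tested, and no member was among them. Pou5f1, Utf1, Dppa4 and Tdgf1 were lower in auxin in all 3 replicates, that is 4 of 9 members above 1 CPM in all sums. Of 10986 such genes 12.3% were, and none of the 4 members passed the test. The count takes 1 plate per condition in replicate 3. Of the 2 disputed plates, the one that the source values call auxin had 10.5, 34.9, 140 and 592 CPM of these 4 genes. The one that they call control had 5.80, 13.7, 115 and 453 CPM, so by source values this pair of plates goes the other way. The largest block estimate among members was that of Utf1, −1.20 ± 0.33 on the log2 scale (SE, adjusted p = 0.697), from log2 values of −1.68, −0.06 and −2.12 in replicates 1, 2 and 3. Without replicate 2, in which Utf1 hardly moved, the blocked estimate was −1.89 and passed (adjusted p = 0.00109), while under the other alternatives the adjusted p was 0.532 to 1.00 and the estimate −1.92 to −0.28. Lin28a had a block estimate of −0.88 ± 0.33 (adjusted p = 0.803), from −1.61, 0.04 and −1.38, which was −1.51 without replicate 2 and −0.47 without replicate 1 and passed in neither.

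Tdgf1 had the closest values across replicates, −0.34, −0.23 and −0.29, with a mean of −0.29 ± 0.053 (SD, n = 3). Its block estimate was −0.30 ± 0.07 (adjusted p = 0.652). The value of replicate 3 comes from 1 plate per condition. On the disputed plates Tdgf1 was higher where the source values say auxin (592 CPM) than where they say control (453 CPM). Pou5f1 had −0.26, −0.53 and −0.20 (block −0.37 ± 0.12, adjusted p = 0.763), although its level differed so much between replicates. Dppa4 (block −0.28), Dppa5a (−0.26) and L1td1 (−0.24, or −0.42 without replicate 2 and −0.10 without replicate 1) had small estimates, and Sall4 (0.02) and Dppa2 (−0.01) had estimates near 0. Sox2 could be read in replicate 1 only, where its log2 value was −0.67. Its plates overlapped there, at 112 and 192 CPM in control and 75.3 and 117 CPM in auxin. In the lists, 2 naive factors fell under the block, Klf4 (−1.26, adjusted p = 0.0418) and Klf5 (−1.24, adjusted p = 0.0211), and the other lists had 0 calls. With the disputed plates placed by source values 0 genes passed under the block, so both calls were lost.

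**Figure D4:**
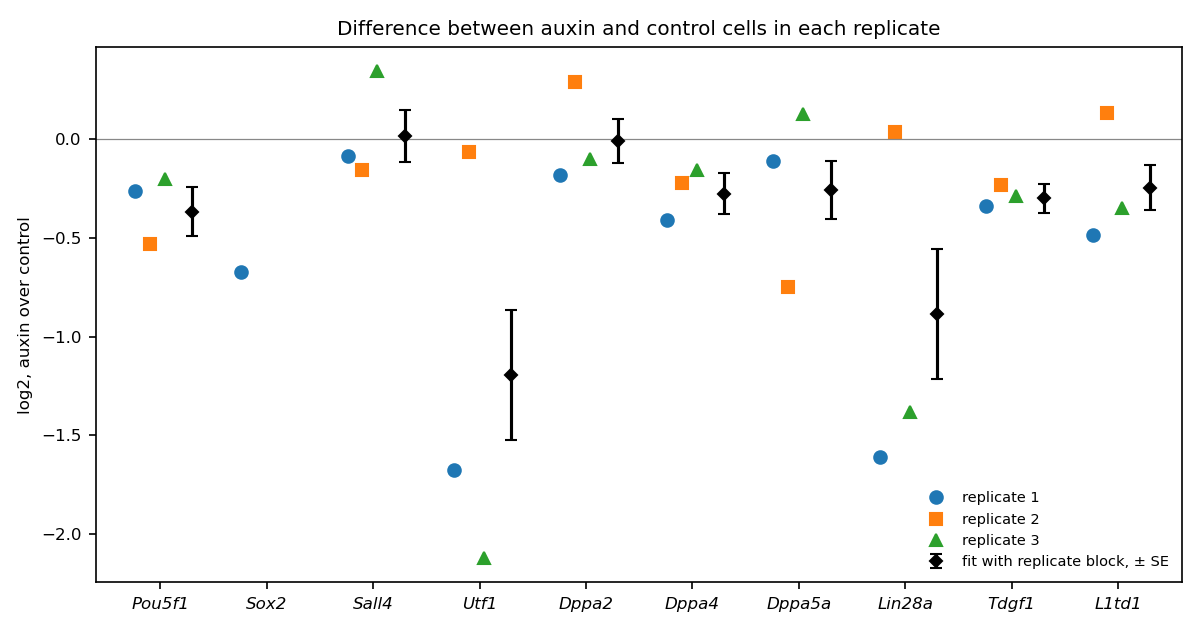
Log2 ratio of auxin over control for each gene in each replicate (coloured markers), with the estimate of the fit with the replicate block and its SE in black. Utf1 and Lin28a are low in replicates 1 and 3 and near 0 in replicate 2, and Tdgf1 lies between −0.34 and −0.23 in all 3. The disputed plates are left out, so replicate 3 has 1 plate per condition.

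With plates as libraries the auxin effect could be fitted within a replicate, though plates of a replicate are technical units that share their cells' source, and replicate 3 has 1 plate per condition. In replicate 1, 22 of 15640 genes were called (0.141%), among them Utf1 (−1.73 ± 0.19, adjusted p = 0.00141) and Lin28a (−1.65 ± 0.28, adjusted p = 0.0275). In replicate 2, 568 genes were called (3.63%), among them Dppa5a (−0.79 ± 0.07, adjusted p = 2.65e-05) and Pou5f1 (−0.57 ± 0.15, adjusted p = 0.0435). In replicate 3 the 1 gene called (0.00639%) was Utf1 (−2.08 ± 0.27, adjusted p = 0.0233), from 1 plate against 1, so that its SE and p assume that these plates vary like those of replicates 1 and 2. Utf1 was at 25.4 to 34.0 CPM on control and 8.73 to 9.63 CPM on auxin plates of replicate 1, with no overlap, and at 52.1 and 12.0 CPM on the plates of replicate 3. On the plates of disputed condition it was at 34.9 CPM where the annotation says control and at 13.7 CPM where it says auxin. The difference between replicates was itself called for Utf1, Dppa5a and Lin28a between replicates 2 and 1, where 86 genes were called (0.55%), and for Utf1 between replicates 2 and 3, where 4 were (0.0256%) and replicate 3 again adds no spread of its own. Between replicates 3 and 1, 0 were called (0%).

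The share of cells with Utf1 moved as its level did. Utf1 was found in 33.3%, 89.3% and 38.1% of control cells and in 8.88%, 88.8% and 13.9% of auxin cells of replicates 1, 2 and 3. The mean difference was −16.4 ± 13.8 percentage points (SD, n = 3), lower in 3 of 3 replicates, and an exact permutation test over sign flips (two-sided) gave p = 0.25, the smallest that 3 replicates allow. With all plates placed by source values it was −8.75 points, replicate 3 being at −1.33 in place of −24.2, and with over 4000 detected genes Utf1 was lower in 2 of 3. Tdgf1 (−5.51 ± 5.81 points) was also lower in 3 of 3 replicates, at the same exact p of 0.25, and so was L1td1 (−3.17 ± 3.07 points). For L1td1 the mean turned to 0.77 points with all plates by source values, and with over 4000 detected genes it was lower in 2 of 3. As deposited, the 3 members lower in all replicates were Dppa4, Tdgf1 and L1td1. Markers of 2-cell-like cells, a state in whose control Dppa2 and Dppa4 take part, summed to 0.265 to 0.666 CPM in control sums and to 15.1, 0.0991 and 5.38 CPM in auxin sums of replicates 1, 2 and 3. In auxin cells 251 of 260 UMIs of Zscan4c, Zscan4d and Zscan4f in replicate 1 came from 2 cells, and all 23 in replicate 3 from 1 cell.

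Coexpression across cells was measured as in the study by Spearman correlation, here between pairs of members in thinned counts. The mean over pairs was 0.053, 0.091 and 0.025 in control and 0.018, 0.143 and 0.048 in auxin cells of replicates 1, 2 and 3, over 45 pairs in replicate 1 and 36 in the others, where Sox2 is at 0. Genes with a mean of at least 1 UMI had mean correlations of 0.0017 to 0.031 in the same cells. The difference of auxin from control had a mean of 0.0135 ± 0.0447 (SD, n = 3), and its sign differed between replicates, down in replicate 1 and up in the others. The mean was −0.0061 without replicate 2 and −0.0125 as a Pearson correlation of log2(CPM + 1). As deposited, where the depth of a cell enters all its counts, the mean level was 0.283.

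Dppa5a and Tdgf1, on the same chromosome, were the pair with the highest mean, 0.28. It was at 0.25 in both conditions of replicate 1, at 0.45 and 0.51 in replicate 2, and at 0.10 and 0.14 in replicate 3, positive in all 6 groups. Utf1 with L1td1 (0.17), Tdgf1 with L1td1 (0.16), Dppa2 with Tdgf1 (0.16) and Utf1 with Dppa4 (0.16) followed, all positive in 6 of 6 groups. The genes of each of these pairs lie on different chromosomes. The adjacent genes Dppa2 and Dppa4 had a mean of 0.11. Lin28a and L1td1, genes of RNA-binding proteins that are both on chromosome 4, had one of 0.022, positive in 3 of 6 groups. In replicate 1, where both could be read, Pou5f1 and Sox2, whose proteins bind together, had a mean of 0.03. Most of these values are small and counts are sparse, so they are descriptions only.

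**Figure D5:**
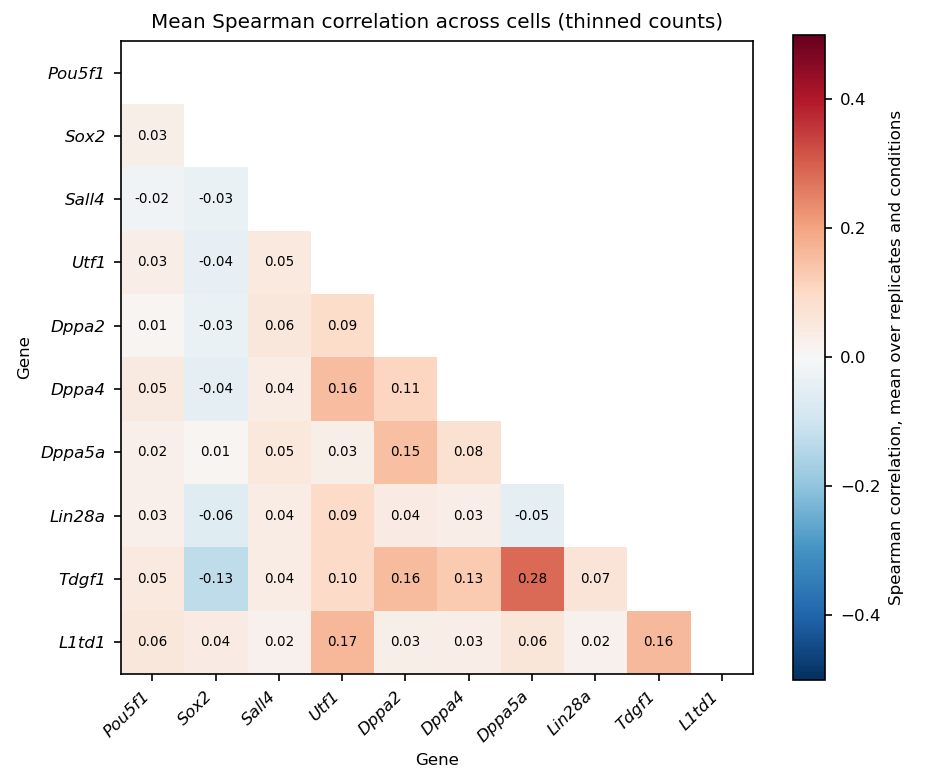
Mean Spearman correlation across cells in counts thinned to 20000 UMIs for each pair of genes, averaged over replicates and conditions (colour scale). Dppa5a with Tdgf1 has the highest mean, 0.28.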

How the data were processed

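Deposited tables gave, per the labels and methods, UMI counts per gene and well for mm10; the aligner, counter and annotation are not given in the sources used here. The authors also deposited plate annotations with read totals and saturation as fractions, and the percent of ERCC UMIs per well; other columns were not used. Gene UMIs of cells with over 2600 detected genes were summed per replicate and condition. Rows of 92 ERCC spike-ins and 11 transgenes (31 to 188 UMIs per replicate) were left out of totals. CPM are UMIs per 1000000 gene UMIs. Conditions came from the deposited annotation, and 2 replicate 3 plates of disputed condition were left out. Depth per sum is given in the report and sets the precision. Gene overlaps and copies came from the GENCODE annotation of GRCm38 (52403 of 52636 genes found) and from RefSeq names, with blastn 2.17.0.

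Sums were fitted with edgeR 4.0.16 (quasi-likelihood test, TMM, filterByExpr, Benjamini-Hochberg over 17514 genes, threshold 0.05) in R 4.3.3, with DESeq2 1.42.0 and limma 3.58.1 (log2 of CPM + 1) as alternatives. The fits were tested on simulated data. Same-numbered sums deviated together (correlations 0.866, 0.824 and 0.666 over 17514 genes) and the study repeated the entire procedure by replicate, so the numbers pair the sums, and the blocked fit is given where it changes a call. Fits between replicates have no second culture of a condition within a replicate, and p-values measure only the spread between these sums. Cells were thinned to 20000 UMIs without replacement (Python 3.11.15), and shallower cells left out; doublets were not called. Intervals and limits of a count of 0 (3 counts) cover counting error only. The members and gene lists were chosen with earlier results of these data known. Named beyond the members were genes of the fixed lists that passed (all if 5 or fewer, otherwise the 4 of largest change), rows that could share a member's reads, and the 5 genes most like Pou5f1 over plates. Some rows that resemble Pou5f1 are not reported here. Alternatives covered scaling, filters, tools, plate placement, cell filters and left-out sums.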

Additional observations from a re-analysis of the deposited data

Results flagged for a closer look

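The auxin effect on Utf1 differed between replicates 2 and 1 when plates were fitted as libraries. It was higher in replicate 2 by 1.63 ± 0.22 on the log2 scale (SE, adjusted p = 0.00440, edgeR interaction term). The difference from replicate 3 was 1.98 ± 0.30 (adjusted p = 0.0415), with 1 plate per condition in replicate 3 that is assumed to vary like the others. The effect on Lin28a was higher in replicate 2 than in replicate 1 by 1.64 ± 0.32 (adjusted p = 0.0309), and that on Dppa5a differed by −0.63 ± 0.12 (adjusted p = 0.0307). Plates of a replicate are technical units, so these p-values cover the spread between plates and not between cultures. Utf1 and Lin28a had their highest levels, and Dppa5a its lowest, in replicate 2.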

How the results depend on the processing

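Of 162 comparisons of members between auxin and control under the alternatives, 148 kept their direction and side of the threshold, 1 passed newly (Utf1, in the report) and 13 turned sign; of 360 between replicates, Pou5f1 aside, 311 kept both, 13 lost the call, 3 gained it (Sall4) and 33 turned sign; of 70 for the shares, 69 moved by less than 1 SD and 1 (L1td1, plates by source values, 0.77 points) by more. The count of genes called for auxin rose from 0 to 3 with the replicate block, 56 with DESeq2 and the block, 3 with the block and all plates by annotation, and 0 with the block and all plates by source values, and was 14, 32 and 2 with the block and without replicate 1, 2 or 3; the block changed no other call of a member. Sall4, 0.05 for auxin over control on the log2 scale, was −0.12 with plates by source values (−0.13 with the block) and −0.15 to 0.15 without 1 replicate (−0.15 to 0.12 with the block). Dppa2 was 0.014 with no filter, 0.066 with plates by annotation (0.070 with the block), 0.015 with limma on CPM, and −0.15 to 0.097 without 1 replicate, or −0.15 to 0.10 with the block (0.023 without replicate 3); Dppa5a was −0.46 to 0.0024 with the block. For replicate 2 against 1, Sall4 was 0.083 with no filter, 0.38 with limma and −0.21 to 0.14 without 1 sum, and Dppa2 0.022, 0.16 and −0.27 to 0.091. For replicate 3 against 1, 4443 to 8209 genes were called without 1 sum (4611 and 4443 without the auxin or control sum of replicate 3). Dppa4 was 0.0066 with no filter; with plates by annotation and by source values Dppa2 was 0.035 and 0.046, Dppa4 0.028 and 0.036, and Lin28a 0.36 and 0.40; with limma Dppa2 was 0.33, Dppa4 0.37, Lin28a 0.13, Tdgf1 0.027 and L1td1 0.030. Without 1 sum Utf1 was −0.50 to 0.74, Dppa2 −0.22 to 0.097, Dppa4 −0.18 to 0.095 and Lin28a −0.71 to 0.46. For replicate 3 against 2, 1297 to 4126 genes were called without 1 sum (1324 and 1297 without the auxin or control sum of replicate 3); Dppa2 was −0.032 with no filter and −0.17 to 0.23 without 1 sum, and Tdgf1 was 0.090 with limma, 0.0022 with plates as libraries and −0.049 to 0.035 without 1 sum. With limma on CPM the genes called for replicate 2 against 1 split into 7366 higher and 1912 lower against 5312 and 3551 in the report's fit, and for replicate 3 against 1 into 6124 and 1224 against 4401 and 2817. Members whose share of cells fell in all replicates numbered 4 to 5 without 1 replicate, against 3. The Pou5f1 ratio to replicate 1 was 0.0384 and 0.0320 in UMIs per cell and 0.0402 and 0.0959 per ERCC UMIs in replicates 2 and 3. Counts of some members were low in replicate 3: its control and auxin sums held 76 and 73 UMIs of Pou5f1 and 59 and 25 of Lin28a. Its auxin sum held 80 UMIs of Utf1, and Sox2 was at 0 in both. The mean auxin difference in correlation was −0.0061 to 0.038 without 1 replicate and −0.012 as Pearson of log2(CPM + 1). The causes of these changes were not tested.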
